A study of Mus musculus with 4 samples.

Results

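Forkhead transcription factors of spinal neurons were followed in sorted cells of the mouse neural tube at E10.5, in mid-gestation. The 6 genes were Foxd3, Foxp1, Foxp2, Foxp4, Foxn4 and Foxd1, chosen by name, and each was read from its brightest probe set with a single gene symbol. The 6 genes had 20 such probe sets, of which 19 were bright enough to be kept. All 6 were among the 12740 genes tested, and 27 forkhead genes were tested in all. The Atoh1-GFP cells came from Atoh1BAC-GFP embryos, in which a bacterial artificial chromosome of the Atoh1 locus drives GFP in the lineage of dorsal interneuron 1 (dI1). They were set against cells from dNeurog1-GFP embryos, in which an enhancer of Neurog1 drives GFP in the dorsal neural tube, where it marks dorsal interneuron 2 (dI2). Both lines were of mixed B6SJLF1 and ICR strains, and each gave 2 arrays, described as biological replicates, of cells sorted by GFP from the neural tube between forelimb and hindlimb. Both a GFP-positive and a GFP-negative fraction were collected, and which of them was hybridised is not spelled out in the labels. The number of embryos behind an array is not stated there either. Both groups carried a GFP transgene, and each was defined by the cells its regulatory sequence reached, not by a mutation.

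Forkhead proteins bind DNA through a winged-helix domain and often set cell fate. In the developing spinal cord, Foxd3 marks neural crest and then dI2 and V1 interneurons, while Foxn4 acts in progenitors of the ventral V2 interneurons. Foxp1, Foxp2 and Foxp4 are related repressors that can form dimers with each other. Foxp1 is best known as a Hox cofactor of limb-innervating motor neurons.

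As deposited, the replicate 1 arrays of both populations had a trimmed mean signal of 250.001 and the replicate 2 arrays one of 500.003, so signals are given here after scaling each array to one trimmed mean. This multiplied the replicate 1 signals by 2.0. The median signal was then 138 and 76.0 on the Atoh1-GFP arrays, against 115 and 75.4 on the dNeurog1-GFP arrays. Each difference is the Atoh1-GFP value minus the dNeurog1-GFP value of log2(signal + 32), which understates the change of dim genes. A difference was called at an adjusted p under 0.05 in limma. Calls are given both without a block and blocked on replicate number, which was also the scaling batch. Atoh1 and Neurog1, whose regulatory DNA drove the transgenes, were read first as a check of the labels. Atoh1 gave signals of 21412 and 19675 in Atoh1-GFP cells, against 1771 and 1861 in dNeurog1-GFP cells, and Neurog1 had 172 and 176 in Atoh1-GFP cells, against 1388 and 2469 in dNeurog1-GFP cells. Whether the Atoh1 probe set also reads RNA of the transgene was not tested. In sorted bulk cells, fewer cells of a type and less RNA per cell cannot be told apart.

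None of the 6 forkhead factors was called in either model, where limma called 0.22% of all genes without the block and 6.51% with it. Split by direction, 0.0942% of all genes were called lower in Atoh1-GFP cells and 0.126% higher without the block, and 3.73% lower and 2.78% higher with it. At an unadjusted limma p under 0.05, 1 of the 6 passed without the block and 3 with it. Of all 12740 genes, 1094 passed without the block and 2864 with it. Foxd3, Foxn4 and Foxp1 were lower in Atoh1-GFP cells in each of the 2 replicate numbers, a pattern shown by 3 of the 6 members and by 33.7% of all genes. Both Atoh1-GFP arrays lay below both dNeurog1-GFP arrays for 2 members, Foxd3 and Foxn4, and for 18.8% of all genes. No member was higher in Atoh1-GFP cells in both replicate numbers, as 33.3% of all genes were. Both Atoh1-GFP arrays above both dNeurog1-GFP arrays was a pattern shown by 0 members and 15.9% of all genes. The median difference of the 6 was -0.17 log2 units, against 0.01 over all genes. It was -0.21 within replicate 1 and -0.57 within replicate 2.

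**Figure D1:**
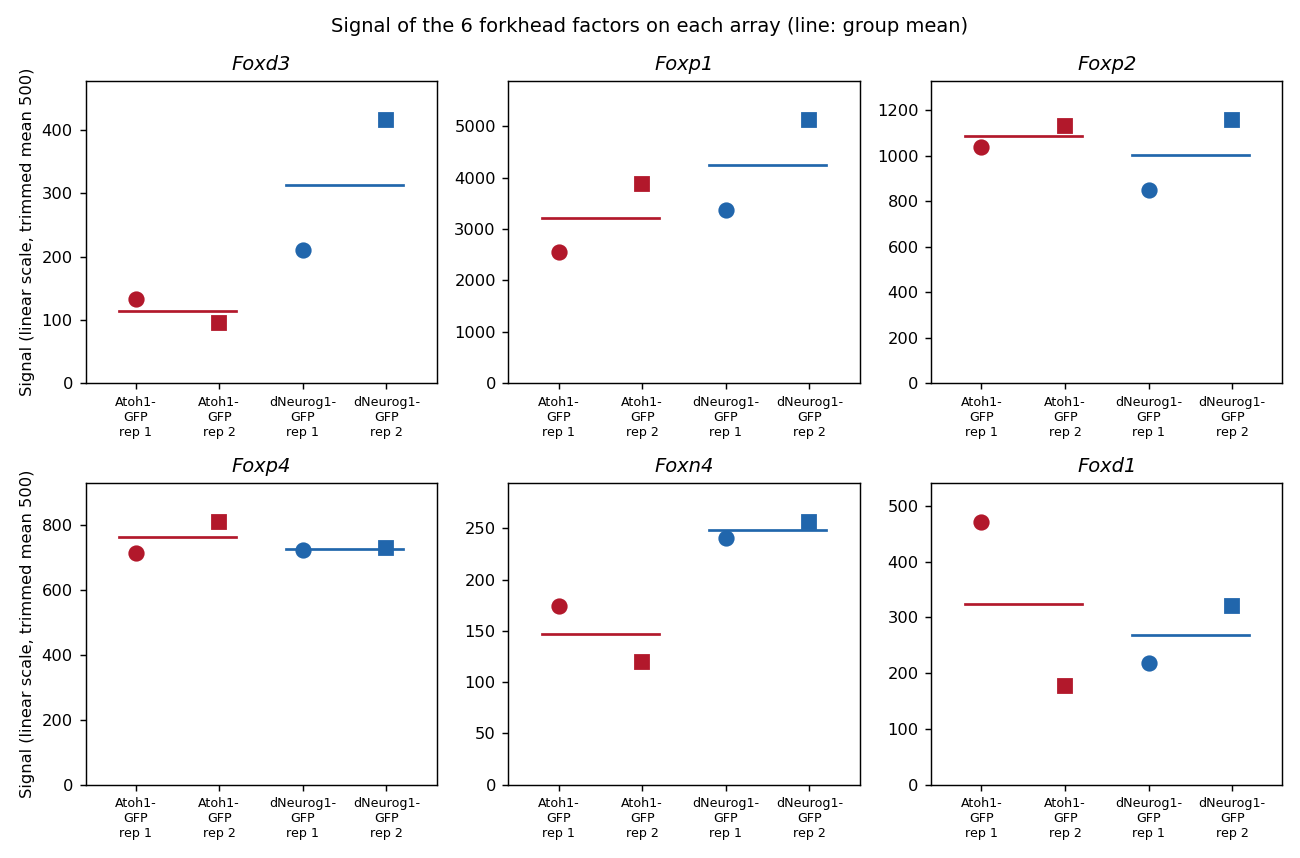
Signal of Foxd3, Foxp1, Foxp2, Foxp4, Foxn4 and Foxd1 (brightest probe set, linear y axis from 0, after scaling to one trimmed mean) on the 2 Atoh1-GFP arrays (red, left) and the 2 dNeurog1-GFP arrays (blue, right), with circles for replicate 1, squares for replicate 2 and lines for group means. The Foxd3 points sit at 133 and 94.3 in Atoh1-GFP cells and at 210 and 415 in dNeurog1-GFP cells, whereas the Foxp4 points all lie between 715 and 809.

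Foxd3, the winged-helix factor of neural crest and of dI2 and V1 interneurons, showed the largest difference of the 6. Its single probe set (1422210_at) gave signals of 133 and 94.3 in Atoh1-GFP cells, against 210 and 415 in dNeurog1-GFP cells. Every Atoh1-GFP array was below every dNeurog1-GFP array, and the replicate 2 array of dNeurog1-GFP cells stood far above the other 3. The group means were 114 ± 27.6 in Atoh1-GFP cells, against 313 ± 145 in dNeurog1-GFP cells (SD, n = 2 each). The log2 difference was -1.19, with a 95% interval from -2.14 to -0.23 without the block and from -2.01 to -0.36 with it. In limma's fit across all genes the unblocked adjusted p was 0.42 and the blocked one 0.10, so the gene was not called. Before the common scaling its deposited signals were 66.7 and 94.3 in Atoh1-GFP cells, against 105 and 415 in dNeurog1-GFP cells. The difference was -0.55 within replicate 1 and -1.82 within replicate 2, and whether these differ was not tested. Of all genes, 2.59% had a difference at least as large in either direction. Without the dNeurog1-GFP replicate 2 array the difference was -0.75.

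The blocked call of Foxd3 depended on how the table was prepared. After quantile normalization its adjusted p with the block in limma was 0.0047, where 13.6% of all genes were called. After scaling to one 75th percentile it was 0.037, with 9.47% of all genes called. When all kept probe sets were tested one by one with the block, the limma adjusted p was 0.042, with 7.98% of probe sets called. These 3 settings were added after the data were seen, as were pseudocounts of 16 and 64 with the block. With those pseudocounts the limma adjusted p of Foxd3 was 0.091 and 0.098, so it was not called. With the block on signals as deposited the adjusted p was 0.064.

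The promoter of Foxd3 is shown with that of Foxn4 because both genes were lower in Atoh1-GFP cells without overlap, and both populations were marked through basic helix-loop-helix genes, whose proteins bind E-box motifs. The 250 bases before a listed transcript start are given 5' to 3' on the gene's strand, from RefSeq on GRCm38.p6, with matches to the E-box CANNTG in capitals. The motif was searched on both strands, on which it reads the same.
Foxd3, chr4:99656049-99656298, plus strand: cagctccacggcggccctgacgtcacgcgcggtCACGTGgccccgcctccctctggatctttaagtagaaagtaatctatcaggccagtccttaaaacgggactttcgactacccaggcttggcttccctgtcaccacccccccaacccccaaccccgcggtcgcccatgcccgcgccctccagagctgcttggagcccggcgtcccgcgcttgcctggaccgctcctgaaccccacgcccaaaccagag
Foxn4, chr5:114273762-114274011, minus strand: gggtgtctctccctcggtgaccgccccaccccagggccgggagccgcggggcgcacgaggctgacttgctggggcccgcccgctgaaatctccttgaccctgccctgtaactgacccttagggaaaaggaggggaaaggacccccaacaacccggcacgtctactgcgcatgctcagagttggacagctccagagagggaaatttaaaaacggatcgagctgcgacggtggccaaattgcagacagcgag
The Foxd3 window adjoins the annotated gene, whereas the Foxn4 window precedes an internal start and lies within the annotated gene span. The Foxd3 window held 1 match, CACGTG, starting at position -217 from that start, and the Foxn4 window held 0. Of 32851 listed promoters, 66.2% held a match in the same window. The narrower forms CAGCTG and CAGATG were searched as well. Each listed window of the members held 0 of both, against 13% and 14.4% of all listed promoters with a match. RefSeq's table listed 7 promoters for the members, with 0 for Foxp2. The 3 promoters of Foxp1 held 1, 3 and 1 matches, and those of Foxp4 and Foxd1 held 1 each. A match is a description of the letters, and its absence says nothing of the factors that bind there.

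Foxd3 was set beside 5 other genes of the dI2 domain. The basic helix-loop-helix gene Neurog2 gave signals of 257 and 244 in Atoh1-GFP cells, against 3631 and 3328 in dNeurog1-GFP cells. The LIM-homeodomain gene Lhx1 had 226 and 197 in Atoh1-GFP cells, against 1972 and 1999 in dNeurog1-GFP cells, and its relative Lhx5 had 118 and 79.3 in Atoh1-GFP cells, against 460 and 729 in dNeurog1-GFP cells. Neurog1, Neurog2 and Lhx1 were called lower in Atoh1-GFP cells without the block, and Lhx5 in addition with it, which made 4 of the 6 genes of that list. Foxd3 is itself among the 6, and Neurog1 is the gene whose enhancer marked the dNeurog1-GFP cells. The POU-domain gene Pou4f1, shared by several dorsal and sensory neurons, was not called (limma adjusted p = 0.33 with the block), with 1557 and 2386 in Atoh1-GFP cells, against 1281 and 2119 in dNeurog1-GFP cells. Among all genes tested, those nearest to Foxd3 in shape over the 4 arrays were Dab1, an adaptor of reelin signalling, Frzb, a secreted Wnt antagonist, and Slitrk2, a neuronal membrane protein. Their distances to Foxd3 were 0.12, 0.15 and 0.20 log2 units (Euclidean, after centring each gene). Dab1 had 125 and 88.6 in Atoh1-GFP cells, against 182 and 356 in dNeurog1-GFP cells.

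Foxd3 is also a neural crest gene, so crest and glial markers were read in the same arrays. Of the 5 that were tested, Sox10, the crest and glial Sox factor, had 218 and 116 in Atoh1-GFP cells, against 142 and 101 in dNeurog1-GFP cells. Erbb3, the neuregulin receptor of that lineage, had 301 and 178 in Atoh1-GFP cells, against 125 and 374 in dNeurog1-GFP cells. Both overlapped between the groups, as did Ets1 and Snai2. The AP-2 factor gene Tfap2a, which is active in crest and in some dorsal interneurons, was called lower in Atoh1-GFP cells in both models. The summed signal of the list was 1874 and 1324 in Atoh1-GFP cells, against 2410 and 3633 in dNeurog1-GFP cells. Without Tfap2a, the only called gene of the list, the other 4 summed to 1577 and 1106 in Atoh1-GFP cells, against 744 and 1490 in dNeurog1-GFP cells. On this sum, which was added after the values were seen, the groups overlapped. Its direction differed between the replicate numbers. The part of crest cells in the Foxd3 difference was not tested.

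Foxn4, which opens the V2 interneuron programme, was the second of the members whose groups did not overlap. Its single probe set (1425254_at) gave signals of 175 and 119 in Atoh1-GFP cells, against 241 and 256 in dNeurog1-GFP cells. The means were 147 ± 39.2 in Atoh1-GFP cells, against 248 ± 10.97 in dNeurog1-GFP cells (SD, n = 2 each), and the log2 difference was -0.66. Without the Atoh1-GFP replicate 2 array it was -0.44. It was -0.40 within replicate 1 and -0.93 within replicate 2. The 95% interval ran from -1.45 to 0.12 without the block and from -1.26 to -0.07 with it, and the limma adjusted p was 0.71 unblocked and 0.18 blocked. Of all genes, 10.53% differed at least this much.

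The V2 genes around Foxn4 were mostly not called. Of the 6 tested, 1 was lower with the block, the LIM-homeodomain gene Lhx4, with 22.8 and 6.55 in Atoh1-GFP cells, against 209 and 399 in dNeurog1-GFP cells. Tal1, a basic helix-loop-helix factor of the V2b fate, had 219 and 142 in Atoh1-GFP cells, against 180 and 579 in dNeurog1-GFP cells. The dNeurog1-GFP replicate 2 array was the only high one for Tal1. Dll4, the Notch ligand that Foxn4 is known to activate, had 118 and 95.1 in Atoh1-GFP cells, against 112 and 45.2 in dNeurog1-GFP cells. The GATA factor gene Gata2 had 376 and 244 in Atoh1-GFP cells, against 293 and 397 in dNeurog1-GFP cells. The median of the 6 was 0.04 within replicate 1 and -1.23 within replicate 2.

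Foxp1 was read by 8 probe sets, all of them kept. The brightest (1435222_at) gave signals of 2549 and 3873 in Atoh1-GFP cells, against 3375 and 5114 in dNeurog1-GFP cells. The groups overlapped, since replicate 2 was the higher array of each, yet within each replicate number the Atoh1-GFP array was the lower one. The log2 difference was -0.40, and it was -0.40 within replicate 1 and -0.40 within replicate 2. The means were 3211 ± 936 in Atoh1-GFP cells, against 4245 ± 1230 in dNeurog1-GFP cells (SD, n = 2 each). The 95% interval was -1.11 to 0.31 without the block and -0.67 to -0.13 with it. In limma the unblocked adjusted p was 0.93 and the blocked one 0.096, so Foxp1 was not called in either model. With 1 array left out, the difference was near -0.70 without the Atoh1-GFP replicate 2 or the dNeurog1-GFP replicate 1 array, and near -0.10 without either of the other two. With the block after quantile normalization it passed, at an adjusted p of 0.030 in limma.

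The other Foxp1 probe sets repeated that direction where they were bright. Of the 8, the 6 with the highest mean signals, 568 or more, were lower in Atoh1-GFP cells in both replicate numbers, and 4 of these had groups that did not overlap. Over all genes, each read from its brightest probe set, these patterns were shown by 33.7% and 18.8%. The 2 dimmest, with mean signals of 166 and 83.1, went opposite ways within the replicate numbers. One probe set (1421141_a_at) was called with the block when probe sets were tested one by one (limma adjusted p = 0.039, log2 difference -0.55). It had 1223 and 1073 in Atoh1-GFP cells, against 1709 and 1677 in dNeurog1-GFP cells. Over the 8 probe sets the differences ran from -0.61 to 0.08. These probe sets read one gene and are not replicates of each other.

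**Figure D2:**
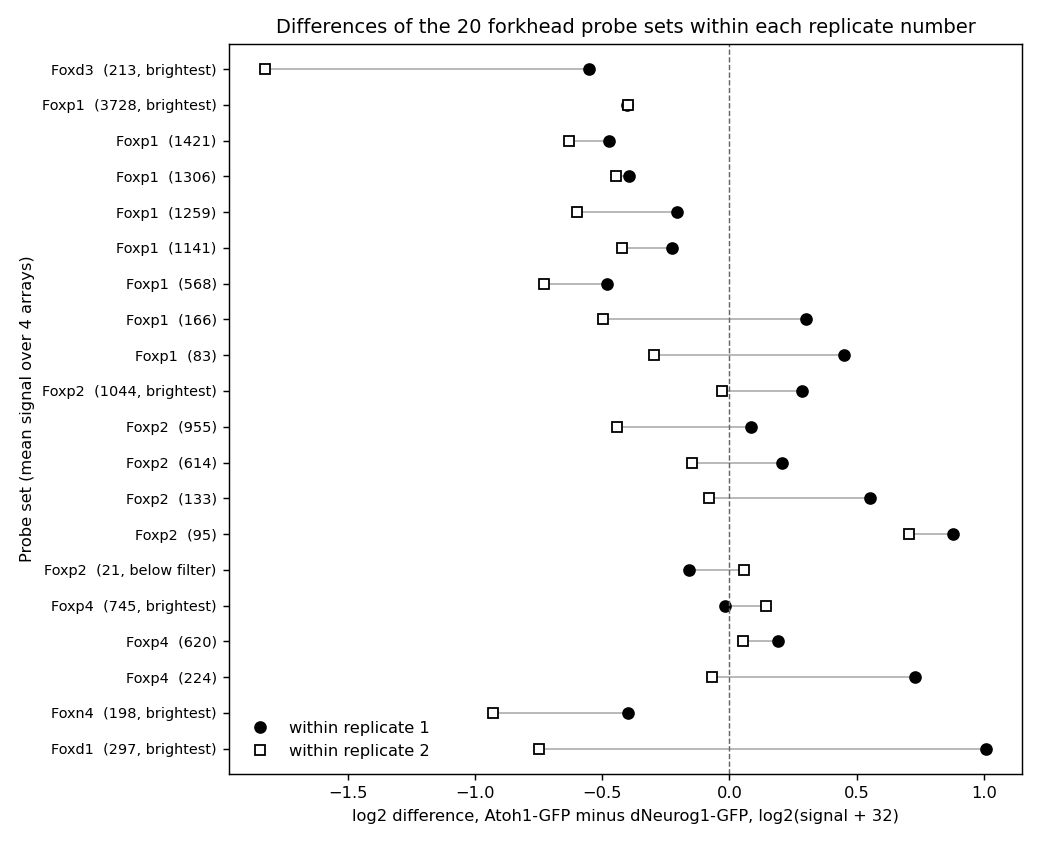
Log2 difference (x axis, the Atoh1-GFP value minus the dNeurog1-GFP value of log2(signal + 32)) of each of the 20 probe sets of the 6 forkhead factors within replicate 1 (filled circles) and within replicate 2 (open squares), with each probe set's mean signal over 4 arrays in brackets. The 6 brightest Foxp1 probe sets lie left of 0 within both replicate numbers, and the 2 Foxd1 points lie on opposite sides, at 1.01 and -0.75.

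Motor neuron genes were read beside Foxp1, given its known role there. Of 9 tested genes, 1 was called lower in Atoh1-GFP cells without the block (Lhx1) and 3 with it (Lhx1, Olig2 and Isl1). Olig2, which specifies motor neuron progenitors, had 3.82 and 7.44 in Atoh1-GFP cells, against 73.6 and 443 in dNeurog1-GFP cells. Mnx1, a homeodomain factor of postmitotic motor neurons, had 85.1 and 43.6 in Atoh1-GFP cells, against 164 and 910 in dNeurog1-GFP cells. Isl1 had 640 and 566 in Atoh1-GFP cells, against 1946 and 5163 in dNeurog1-GFP cells. The dNeurog1-GFP replicate 2 array was the highest for all 3 of these genes. The summed signal of the 9 was 2237 and 1884 in Atoh1-GFP cells, against 5647 and 11674 in dNeurog1-GFP cells. In dNeurog1-GFP cells the brightest of the 9 were Lhx1 (1972 and 1999) and Isl1. Neither is particular to motor neurons, since Lhx1 is also on the dI2 list and the V1 and V0 list. Isl1 is also on the sensory ganglion list. The brightest Foxp1 probe set differed by nearly the same amount within both replicate numbers. The other Foxp1 probe sets with mean signals of 568 or more differed more within replicate 2 than within replicate 1. Among these, the gap between the replicate numbers was smallest for 1421142_s_at (-0.39 and -0.44) and largest for 1455242_at (-0.20 and -0.60). The median of the motor neuron genes was -0.64 within replicate 1 and -2.10 within replicate 2. The part of motor neurons in the Foxp1 difference was not tested.

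Foxp2, the FoxP member known from V1 interneurons and many later neuron classes, did not separate the groups. Its brightest probe set (1438232_at) had 1040 and 1131 in Atoh1-GFP cells, against 848 and 1156 in dNeurog1-GFP cells. The log2 difference was 0.13, 0.28 within replicate 1 and -0.03 within replicate 2, with a 95% interval from -0.47 to 0.73 without the block and from -0.22 to 0.48 with it. The limma adjusted p was 1.0 unblocked and 0.66 blocked. Of 6 probe sets, 5 were kept, and 4 of the 5 went opposite ways within the replicate numbers. The dimmest kept one (1422014_at) was higher in Atoh1-GFP cells within both, with 219 and 43.9 in Atoh1-GFP cells, against 104 and 14.5 in dNeurog1-GFP cells, but it was not called (limma adjusted p = 0.15 with the block, over probe sets).

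Foxp4, the FoxP member found broadly in neural progenitors and neurons, did not separate the groups either. Its brightest probe set (1429719_at) had 715 and 809 in Atoh1-GFP cells, against 724 and 730 in dNeurog1-GFP cells. On this probe set all 4 arrays lay close together, and the log2 difference was 0.06 (-0.02 within replicate 1, 0.14 within replicate 2). The 95% interval was -0.48 to 0.61 without the block and -0.29 to 0.42 with it. For this probe set a difference of 1 log2 unit in either direction lay outside both intervals, as it did for the brightest one of Foxp2. The other 2 Foxp4 probe sets varied far more between arrays, with groups that overlapped. One (1431088_at) had 401 and 883 in Atoh1-GFP cells, against 348 and 849 in dNeurog1-GFP cells, a difference of 0.12. The dimmest (1431437_at) had 443 and 96.3 in Atoh1-GFP cells, against 254 and 103 in dNeurog1-GFP cells, a difference of 0.33. Replicate 2 was the higher array of each group on the first of these and the lower on the second.

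Progenitor and neuron genes were read beside these broadly used FoxP factors. Of 8 progenitor genes, 4 were called lower in Atoh1-GFP cells once blocked, the SoxB genes Sox1 and Sox3, the paired-box gene Pax6 and the radial glial lipid carrier Fabp7. Sox3 had 1130 and 966 in Atoh1-GFP cells, against 3031 and 2376 in dNeurog1-GFP cells. Of 8 genes of postmitotic neurons, 4 were higher with the block (Tubb3, Dcx, Elavl3 and Map2) and 1 was lower (Nefm). Neuron-specific tubulin, Tubb3, had 10017 and 13976 in Atoh1-GFP cells, against 4644 and 7348 in dNeurog1-GFP cells. None of these 16 genes was called without the block.

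Foxd1, a forkhead factor known from kidney stroma, the ventral retina and the diencephalon, went opposite ways in the replicates. Its single probe set (1418876_at) had 471 and 178 in Atoh1-GFP cells, against 218 and 320 in dNeurog1-GFP cells. The highest and the lowest of the 4 signals were thus both from Atoh1-GFP cells. The means were 324 ± 208 in Atoh1-GFP cells, against 269 ± 72.3 in dNeurog1-GFP cells (SD, n = 2 each). The log2 difference was 0.13, made of 1.01 within replicate 1 and -0.75 within replicate 2. Its 95% interval ran from -0.93 to 1.195 without the block and from -0.86 to 1.12 with it, and the limma adjusted p was 1.0 unblocked and 0.88 blocked. Leaving out the Atoh1-GFP replicate 1 array turned it to -0.50, and leaving out the dNeurog1-GFP replicate 1 array to -0.12.

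Mesenchyme genes took the same direction as Foxd1 within each replicate number. All 10 genes of the mesenchyme list were higher in Atoh1-GFP cells within replicate 1 and lower within replicate 2, as were 17.6% of all genes. None of the 10 was called in either model. The platelet-derived growth factor receptor gene Pdgfra had 925 and 625 in Atoh1-GFP cells, against 226 and 778 in dNeurog1-GFP cells. Twist1, a basic helix-loop-helix factor of mesoderm, had 343 and 426 in Atoh1-GFP cells, against 249 and 591 in dNeurog1-GFP cells. The type I collagen gene Col1a1 had 260 and 133 in Atoh1-GFP cells, against 180 and 151 in dNeurog1-GFP cells. Prrx1, a limb and body-wall mesenchyme factor, had 481 and 384 in Atoh1-GFP cells, against 192 and 396 in dNeurog1-GFP cells. The sum over the 10 genes was 6837 and 4688 in Atoh1-GFP cells, against 3119 and 7468 in dNeurog1-GFP cells. The part of mesenchyme cells in the Foxd1 signal was not tested.

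The genes closest to Foxd1 in shape over the 4 arrays were Fli1, an ETS factor of endothelial and blood cells, Cspg4, a proteoglycan of pericytes and glial precursors, and Apod, a lipocalin. They lay at 0.14, 0.20 and 0.20 log2 units from Foxd1. Fli1 had 479 and 180 in Atoh1-GFP cells, against 221 and 287 in dNeurog1-GFP cells. Of 5 endothelial genes tested 0 were called. Within both replicate numbers 4 of the 5 were higher in Atoh1-GFP cells, as were 33.3% of all genes, and 1 took the direction of Foxd1. The summed signal of the list was 1387 and 533 in Atoh1-GFP cells, against 502 and 414 in dNeurog1-GFP cells. The vascular receptor gene Kdr had 538 and 175 in Atoh1-GFP cells, against 243 and 141 in dNeurog1-GFP cells.

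**Figure D3:**
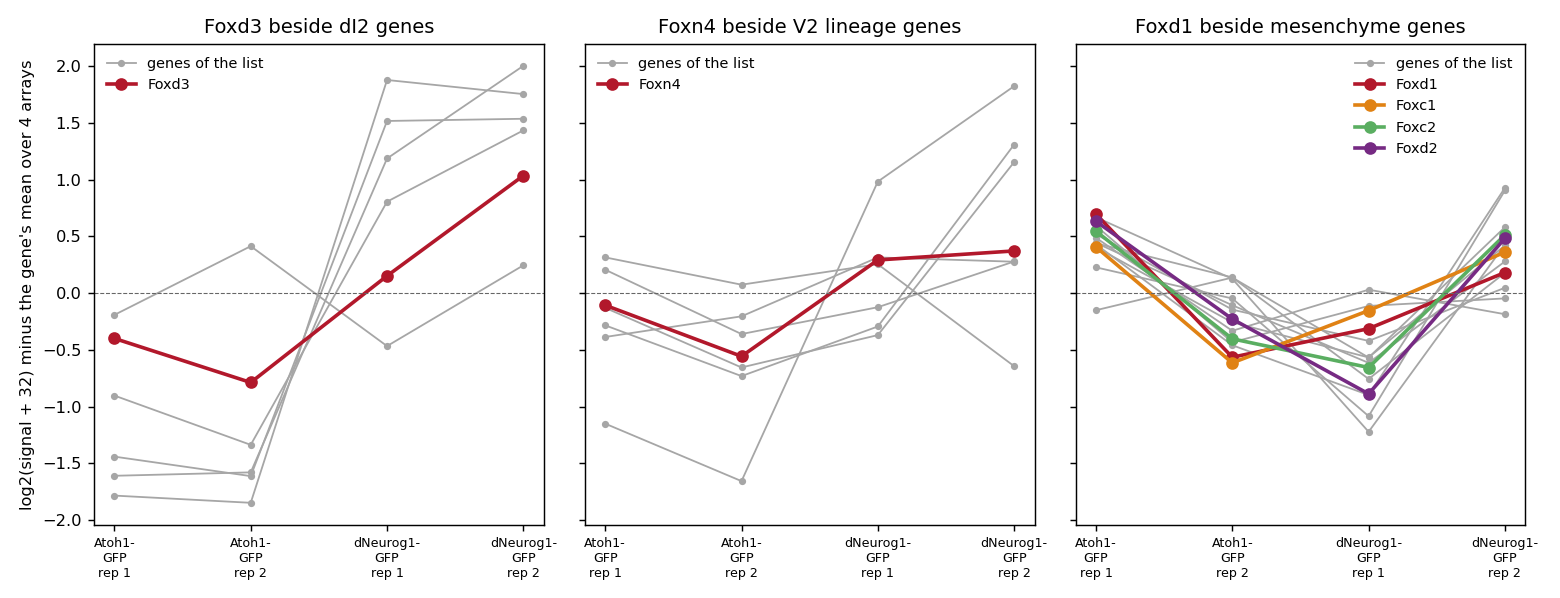
Log2(signal + 32) of each gene minus its own mean over the 4 arrays (y axis), by array (x axis, Atoh1-GFP left, dNeurog1-GFP right), for Foxd3 beside the dI2 genes, Foxn4 beside the V2 genes, and Foxd1 with Foxc1, Foxc2 and Foxd2 beside the mesenchyme genes (grey). In the mesenchyme panel Foxd1 is high on the Atoh1-GFP replicate 1 array (471) and low on the Atoh1-GFP replicate 2 array (178), with 218 and 320 on the dNeurog1-GFP arrays. Foxc1, Foxc2 and Foxd2 were picked for this panel after their values were seen.

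The rest of the forkhead family gave the background of the 6. Of 31 other forkhead genes with a probe set of a single symbol, 21 were bright enough to be tested. Without the block 0 of the 21 were called. At an unadjusted limma p under 0.05, 1 of the 21 passed without the block and 3 with it. Over all 12740 genes these counts were 1094 and 2864. With the block 1 was called, Foxa1, a pioneer factor of the floor plate, which had 201 and 208 in Atoh1-GFP cells, against 67.7 and 71.2 in dNeurog1-GFP cells. Foxa1 was higher by 1.22 log2 units within replicate 1 and 1.21 within replicate 2, with a limma adjusted p of 0.36 unblocked and 0.040 blocked. Its floor plate relative Foxa2 had 123 and 56.2 in Atoh1-GFP cells, against 28.3 and 55.7 in dNeurog1-GFP cells. The floor plate signal gene Shh had 228 and 278 in Atoh1-GFP cells, against 100.0 and 202 in dNeurog1-GFP cells. Foxa2 and Shh were not called. The floor plate gene for netrin 1, Ntn1, which progenitors also make, was called lower with the block, at 298 and 356 in Atoh1-GFP cells, against 912 and 1225 in dNeurog1-GFP cells.

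Foxb1, known from the hypothalamus and the neural tube, showed the largest difference toward dNeurog1-GFP cells among these 21. It had 54.2 and 18.7 in Atoh1-GFP cells, against 126 and 109 in dNeurog1-GFP cells, which is a log2 difference of -1.17 (limma adjusted p = 0.69 unblocked and 0.078 blocked). Foxm1, a driver of mitotic genes, had 620 and 287 in Atoh1-GFP cells, against 830 and 393 in dNeurog1-GFP cells, with a log2 difference of -0.41 that was -0.40 within replicate 1 and -0.41 within replicate 2. Foxf1, a factor of lateral mesoderm, had 443 and 141 in Atoh1-GFP cells, against 242 and 119 in dNeurog1-GFP cells. The 6 brightest of these 21 were led by Foxn3, Foxk2 and Foxj3, with log2 differences of 0.20, 0.13 and -0.12. Foxo3, Foxk1 and Foxn2 completed the 6, with differences of 0.09, -0.15 and -0.19. The median over the 21 was 0.13 log2 units, 0.30 within replicate 1 and -0.02 within replicate 2.

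Foxc1, Foxc2 and Foxd2, forkhead genes of head and trunk mesoderm, were picked after their values were seen because they went opposite ways in the replicates as Foxd1 did. Of the 21 other forkhead genes, 7 were higher within replicate 1 and lower within replicate 2, against 17.6% of all genes. Foxo1, Foxo3, Foxf2 and Foxa3 were the rest of these 7. The lateral mesoderm factor Foxf1 was higher within both, by 0.79 and 0.19. Foxc2 had 300.2 and 140 in Atoh1-GFP cells, against 112 and 293 in dNeurog1-GFP cells, a difference of 1.202 within replicate 1 and -0.92 within replicate 2. Foxc1 had 382 and 172 in Atoh1-GFP cells, against 249 and 369 in dNeurog1-GFP cells. Foxd2 had 234 and 114 in Atoh1-GFP cells, against 60.7 and 208 in dNeurog1-GFP cells. All 3 were high on the Atoh1-GFP replicate 1 and dNeurog1-GFP replicate 2 arrays.

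**Figure D4:**
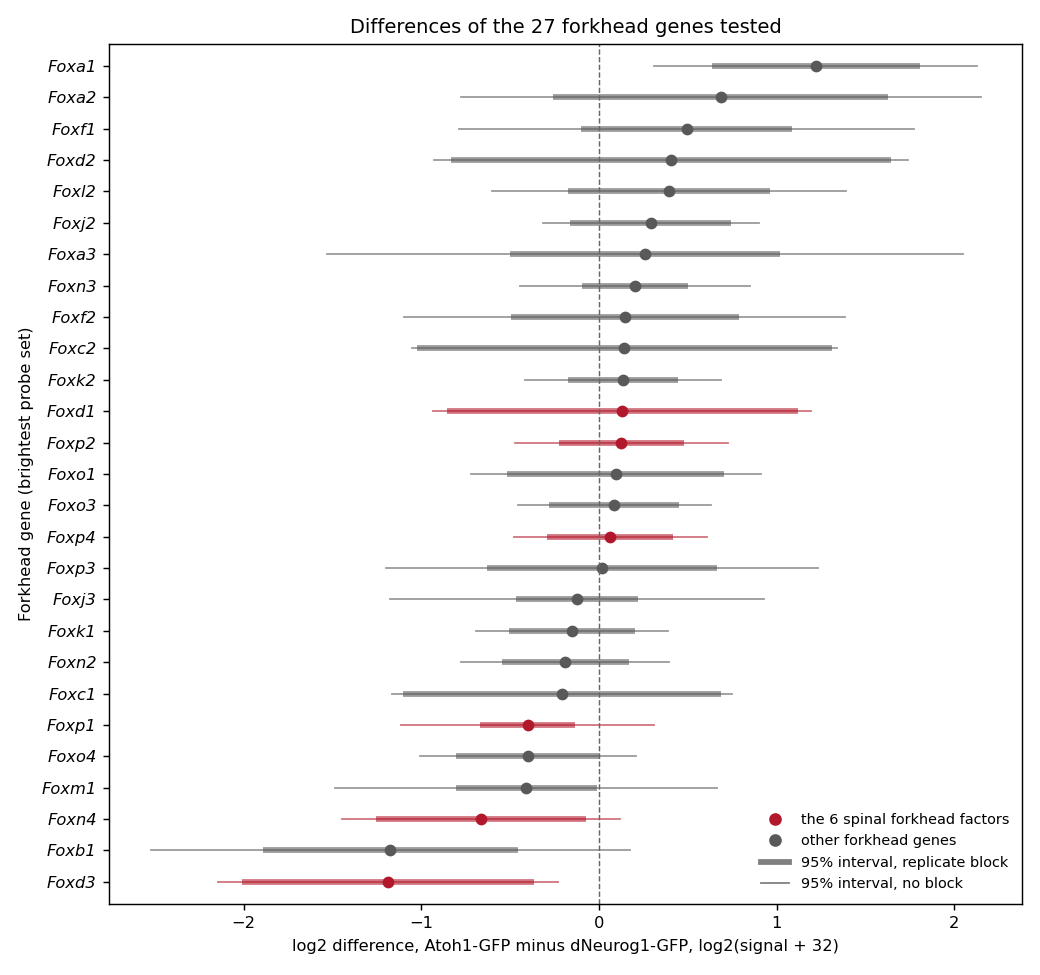
Log2 difference (x axis, the Atoh1-GFP value minus the dNeurog1-GFP value of log2(signal + 32)) of the 27 forkhead genes tested, with the 6 spinal factors in red and the other 21 in grey. Thick bars are 95% intervals with the replicate block and thin bars those without it. Foxd3 (-1.19) and Foxb1 (-1.17) lie at the low end and Foxa1 (1.22) at the high end, and for Foxp2 and Foxp4 both intervals span 0.

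Genes of the remaining lists were read for cells that a dorsal sort could carry, and all summed signals include listed genes too dim to be tested. Of 6 V1 and V0 genes, Lhx1 and Lhx5 were called lower with the block. En1, the V1 homeodomain gene, had 60.1 and 26.6 in Atoh1-GFP cells, against 59.4 and 215 in dNeurog1-GFP cells, and the V0 progenitor gene Dbx1 had 283 and 115 in Atoh1-GFP cells, against 374 and 738 in dNeurog1-GFP cells. Evx1, the V0 homeodomain gene, had 524 and 412 in Atoh1-GFP cells, against 32.6 and 227 in dNeurog1-GFP cells, with a limma adjusted p of 0.089 with the block. Of 6 sensory ganglion genes, Eya2 was called higher and Isl1 and Ret lower with the block, and peripherin, Prph, had 72.9 and 40.9 in Atoh1-GFP cells, against 169 and 310 in dNeurog1-GFP cells. Of 7 heart muscle genes, Myl7 and Myl4 were called higher with the block, and the list's summed signal was 2218 and 4428 in Atoh1-GFP cells, against 487 and 2392 in dNeurog1-GFP cells. Of 4 embryonic blood genes 0 were called, with summed signals of 30534 and 31721 in Atoh1-GFP cells, against 7802 and 22900 in dNeurog1-GFP cells. Of these lists, only Lhx1 was called without the block.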

How the data were processed

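RNA of GFP-sorted cells was measured on 4 Affymetrix arrays, 2 for each population. The authors deposited linear signal intensities made with MAS5, Affymetrix's summary of each probe set, per the submitters' processing notes. No MAS5 version is stated in the sources used here, and no detection calls were used, so whether a dim gene exceeds background is unknown. Of 45101 probe sets, 64 controls were left out, and of the other 45037, 34945 had 1 gene symbol, 932 several and 9160 none in the platform annotation. Each array was multiplied to one trimmed mean (2% left out at each end, over all probe sets). Probe sets at or above the 40th percentile of the mean signal (63.5) were kept, 27022 in all. A gene was its brightest kept probe set, which gave 12740 genes. All 20 probe sets of the members matched the RefSeq gene table by gene identifier.

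limma 3.58.1 in R 4.3.3 (lmFit and eBayes with an intensity trend) tested log2(signal + 32), with Benjamini-Hochberg adjustment over all genes and a threshold of 0.05. The model without the block had 2 residual degrees of freedom and a median prior of 4.92, and that with the block 1 and 5.11, so the p-values rest largely on the spread shared across genes. An exact permutation test of 2 against 2 arrays cannot go below p = 0.333 and was not used. Across genes, deviations from the group means of same-numbered arrays correlated at 0.66, but with 2 pairs and no label that equal numbers share a litter or day, the pairing is not settled. The number of arrays limits the precision. The statistics were tested on simulated data.

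The members and gene lists were chosen with earlier results of these data known. Named were all members, the forkhead genes called in either model, the 6 brightest and the 4 with the largest differences of the others, up to 4 genes of each list with any called one, and the 3 genes nearest to each member that spanned at least 1 log2 unit over the arrays. Foxc1, Foxc2 and Foxd2 were added after their values were seen. Alternatives were other scalings, pseudocounts, filters, no trend, the block, single probe sets and leaving out each array.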

Additional observations from a re-analysis of the deposited data

How the results depend on the processing

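Blocking on the replicate number gave 829 called genes, against 28 without the replicate block. The block gave 1169 calls on signals as deposited, 1729 after quantile normalization, 1207 at one 75th percentile, 898 and 860 with pseudocounts of 16 and 64, and 2156 over single probe sets, the last 5 settings being added after the data were seen. Without the block, 13 were called on signals as deposited, 18 at one 75th percentile, 14 with no filter, 18 with the 60th percentile filter, 0 in limma without the intensity trend and 1 over single probe sets. Leaving out 1 array gave between 153 and 380 calls. The cause of these shifts was not tested.

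The count of called members was 0 in all settings but 3. With the block it was 2 after quantile normalization (Foxd3, -1.24, and Foxp1, -0.38), 1 at one 75th percentile (Foxd3, -1.22) and 2 over single probe sets, settings that called 13.6% and 9.47% of all genes and 7.98% of probe sets. Among the other forkhead genes, the block called 1 gene on scaled or deposited signals and with either pseudocount, 2 with quantile normalization or one 75th percentile, and 4 single probe sets. Foxd1 ranged from -0.50 to 0.76 when 1 array was left out, at -0.12 without dNeurog1-GFP replicate 1. Foxp2 ranged from -0.0896 (without dNeurog1-GFP replicate 1) to 0.34 and Foxp4 from -0.0217 (without Atoh1-GFP replicate 2) to 0.15. Foxd3 (-1.63 to -0.75), Foxn4 (-0.89 to -0.44) and Foxp1 (-0.70 to -0.10) kept their sign in all settings run. Under the 4 scalings the median of all genes stayed between -0.03 and 0.01, and the 6 members kept their direction. The 2 arrays in each group limit what could be called.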
